A study of Mus musculus with 20 samples.

Results

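Hox genes and their cofactors were followed in 2 populations of blood-forming cells from mouse bone marrow, the haematopoietic stem cells with long-term activity (LT-HSC) and their offspring, the multipotent progenitors (MPP), of wild-type (WT) mice and of mice labelled as knockouts of the aryl hydrocarbon receptor (AhR-KO). The set holds 9 of the 49568 genes counted, chosen by symbol as HoxA and HoxB genes and partners linked to self-renewal. It comprises Hoxa5, Hoxa7, Hoxa9 and Hoxa10 of the HoxA cluster, Hoxb2, Hoxb4 and Hoxb5 of the HoxB cluster, and the cofactor genes Meis1 and Pbx3. The measured levels were not part of the rule. Each of the 4 groups (WT LT-HSC, AhR-KO LT-HSC, WT MPP, AhR-KO MPP) has 5 RNA-seq libraries from untreated animals of the strain C57BL/6, aged 8 to 12 weeks, and by their labels the groups differ in genotype and in the sorted population. The sources used here do not give the knockout allele, the sort markers, or whether each library came from its own animal, so that p-values measure the spread between these libraries, which may be technical.

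Hox genes encode homeodomain transcription factors that lie in clusters and are used in the blood system in an ordered way, with many of them high in stem cells and shut off as cells mature. On DNA their proteins act together with homeodomain cofactors of the TALE class, which include the Meis and Pbx proteins. Hoxa9 and Meis1 together drive leukaemia when they are kept on, Hoxb4 is known for expanding stem cells when overexpressed, and Hoxb5 is used as a reporter gene for long-term stem cells. AHR, the receptor whose gene the knockout targets, is a ligand-activated factor that binds DNA with its partner ARNT at sites that hold the letters GCGTG.

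In the annotation GENCODE M21 of the genome build GRCm38, the HoxA members lie on the minus strand of chromosome 6, with Hoxa5 from 52201754 to 52204587, Hoxa7 from 52214491 to 52221854, Hoxa9 from 52223100 to 52231089 and Hoxa10 from 52231197 to 52240854. The HoxB members lie on the plus strand of chromosome 11, with Hoxb5 from 96303336 to 96306121, Hoxb4 from 96318267 to 96321638 and Hoxb2 from 96350525 to 96354012. Meis1 is on the minus strand of chromosome 11 from 18879817 to 19018985, far from the HoxB cluster, and Pbx3 on the minus strand of chromosome 2 from 34171457 to 34373142. Of the exon bases of Hoxb2, 27.3% are shared with the antisense gene Hoxb3os, and of those of Hoxa7, 20.4% with the antisense gene Hoxaas3. The share was 18.3% for Meis1, with the predicted genes Gm16140 and Gm37818, 3.59% for Hoxb5, with Hoxb5os, and 1.52% for Hoxa9, with Mir196b. Since the library kit does not mark strand, reads from overlaps with genes on the opposite strand cannot be assigned to one gene. Mir196b and Gm37818 lie on the same strand as Hoxa9 and Meis1, where strand would not part the reads either. The values of Hoxb2, Hoxa7 and Meis1 are uncertain to the extent of their shares.

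Promoter windows, from 250 bases before the RefSeq transcription start to 50 bases into the transcript (build GRCm38.p6), were found for 6 of the 9 genes, in 7 windows. Those of the genes whose levels the results turn on are printed 5′ to 3′ on the strand of the gene, with the letters GCGTG in capitals. The windows lie at chr6:52227321-52227620 (Hoxa9), chr6:52218524-52218823 (Hoxa7), chr6:52234890-52235189 (Hoxa10) and chr11:19018920-19019219 (Meis1), all on the minus strand. The starts of Hoxa7, Hoxa9 and Hoxa10 used here lie inside the GENCODE gene models, which reach further upstream.
Hoxa9: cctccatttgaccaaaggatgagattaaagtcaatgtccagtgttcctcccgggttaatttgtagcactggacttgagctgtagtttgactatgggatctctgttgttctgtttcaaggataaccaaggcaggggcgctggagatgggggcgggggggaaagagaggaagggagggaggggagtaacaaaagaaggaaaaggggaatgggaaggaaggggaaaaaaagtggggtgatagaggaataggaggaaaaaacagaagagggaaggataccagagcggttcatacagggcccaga
Hoxa7: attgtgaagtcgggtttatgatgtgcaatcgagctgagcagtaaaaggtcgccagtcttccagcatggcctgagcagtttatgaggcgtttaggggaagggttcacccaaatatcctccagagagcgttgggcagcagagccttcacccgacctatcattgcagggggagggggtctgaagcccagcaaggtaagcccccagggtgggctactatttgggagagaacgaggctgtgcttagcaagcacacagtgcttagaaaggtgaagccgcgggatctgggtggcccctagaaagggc
Hoxa10: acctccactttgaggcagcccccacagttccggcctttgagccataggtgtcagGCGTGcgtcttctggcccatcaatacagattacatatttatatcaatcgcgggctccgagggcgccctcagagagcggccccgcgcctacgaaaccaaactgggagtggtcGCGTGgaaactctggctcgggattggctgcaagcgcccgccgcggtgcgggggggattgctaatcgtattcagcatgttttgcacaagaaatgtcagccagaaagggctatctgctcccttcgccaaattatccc
Meis1: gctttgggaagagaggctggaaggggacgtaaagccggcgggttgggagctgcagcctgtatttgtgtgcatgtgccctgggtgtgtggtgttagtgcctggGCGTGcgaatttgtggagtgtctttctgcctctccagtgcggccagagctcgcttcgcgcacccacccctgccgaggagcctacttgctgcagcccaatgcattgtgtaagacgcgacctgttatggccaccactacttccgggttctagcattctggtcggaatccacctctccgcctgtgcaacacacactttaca
GCGTG, searched on both strands, occurred in 32.4% of all 32851 promoter windows of the same length. It occurred in the printed Hoxa10 window at 196 and 85 bases before the start (offsets -196 and -85), in the Meis1 window at offset -148, in the Hoxb4 window at -230 and -5, and in the Hoxa5 window at -233. The windows of Hoxa7 and Hoxa9, and that of a second Hoxa10 start, did not hold these letters. The MEIS recognition letters TGACAG (in 19.2% of all windows) and the composite HOX-PBX letters TGATNNAT (in 8.85%), also searched on both strands, were in none of the 7 windows. The number of CG pairs was 4 in the Hoxa9 window, 9 in that of Hoxa7, 15 in that of Meis1, 21 in that of Hoxa10 and 29 in that of Hoxa5, beside a median of 7 over all windows. These matches describe the letters only.

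Library totals ranged from 13712668 to 21622653 counts. Transcripts of Ahr itself were present in every library of every group, so that a count of the gene does not check the genotype label. The 10 LT-HSC markers, which include Procr, Mecom and Hlf, summed to 1890 to 2390 CPM (counts scaled to a common library total by TMM) over the LT-HSC libraries and to 569 to 1010 CPM over the MPP libraries, and the 6 MPP markers, which include Flt3 and Cd34, to 440 to 655 and 1710 to 2790 CPM. In LT-HSC, 3 libraries were left out in further fits, singly and together. WT LT-HSC 1 had the lowest sums of its group for LT-HSC markers (2030 CPM) and for neutrophil markers (14.1 CPM). AhR-KO LT-HSC 2 and 3 had still lower LT-HSC marker sums, 1894 and 1952 CPM (group median 2230). They had neutrophil marker sums of 2839 and 2979 CPM (group median 395) and erythroid sums of 1617 and 1815 CPM (median 294). Their monocyte or macrophage sums were 2008 and 2244 CPM, where the highest WT LT-HSC library had 656 CPM. AhR-KO LT-HSC 3 also had a stromal sum of 4280 CPM, where every other library of the series had at most 139. WT LT-HSC 6 had the highest erythroid (1095 CPM) and neutrophil (1223 CPM) sums of the WT LT-HSC libraries, beside group medians of 305 and 181 CPM. The part of these sums in the results was not tested beyond the fits that left these libraries out.

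Per kilobase of exon, Meis1 was the most abundant of the 9 genes in all 4 groups, at 44.2 ± 2.47 CPM per kb in WT LT-HSC (SD, n = 5, as for all means). Hoxa9 (14.3 ± 3.86) and Hoxa10 (14.1 ± 1.38) followed and did not differ beyond their spread. Hoxa7 came next with 7.74 ± 1.07 CPM per kb. Hoxa5 (3.42 ± 1.23), Pbx3 (2.91 ± 1.22) and Hoxb5 (2.29 ± 0.448) had ranges within their SD that overlapped, and Hoxb2 (0.455 ± 0.0631) and Hoxb4 (0.447 ± 0.218) were lowest. In WT MPP the order began with Meis1 (23.3 CPM per kb), Hoxa9 (13.1) and Hoxa7 (8.04 ± 0.787), and the range of Hoxa10 within its SD (7.05 ± 1.74) took in the mean of Hoxa7. Hoxb5, above Hoxb4 in LT-HSC, was below it in WT MPP, at 0.208 ± 0.164 against 0.501 ± 0.227 CPM per kb. In AhR-KO LT-HSC, Hoxa10 (12.5 ± 1.66) was above Hoxa9 (9.07 ± 0.97), and in AhR-KO MPP Hoxa7 (10.6 ± 1.45) stood between Hoxa9 (13.3 ± 1.11) and Hoxa10 (6.87 ± 1.17). The order per kb rests on the length of all annotated exons, 5580 bases for Hoxa9 and 3270 for Hoxa10. In CPM, without division by length, Hoxa9 was above Hoxa10 in every library. Which exons are used in these cells was not tested.

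**Figure D1:**
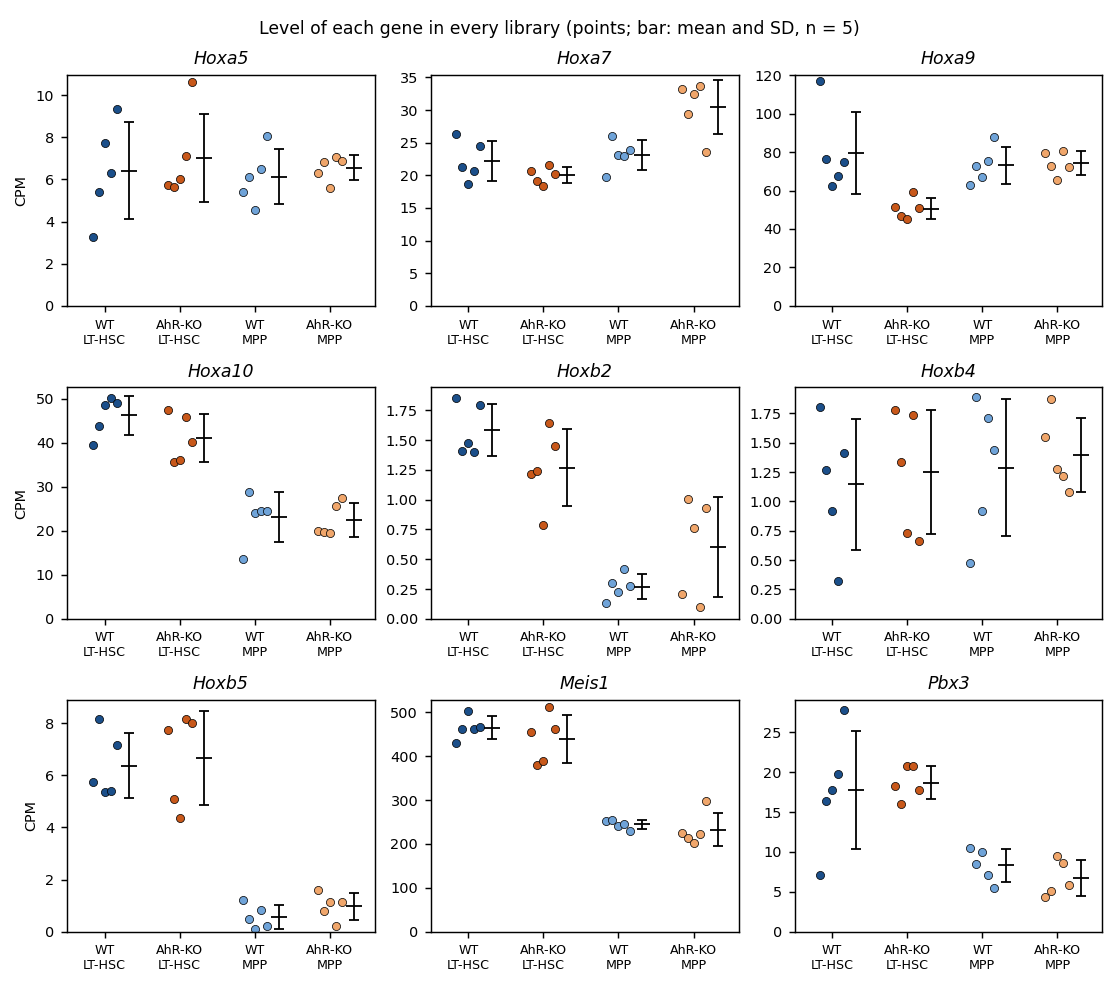
Level of each of the 9 genes (CPM, linear axes from 0) in every library, by group; points are libraries in replicate order, the bar beside them the mean and SD (n = 5). Meis1, Hoxa10 and Hoxb5 are lower in all MPP libraries than in all LT-HSC libraries, and Hoxa9 is lower in the 5 AhR-KO LT-HSC libraries (45.1 to 59.0 CPM) than in the 5 WT LT-HSC libraries (62.5 to 117 CPM). The share of all genes that separate the populations in this way was not counted.

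The first question was how these genes differ between stem cells and progenitors. In WT, 5 of the 9 genes were called lower in MPP (Meis1, Pbx3, Hoxa10, Hoxb2 and Hoxb5) and none higher. Over all 17416 genes tested, 11.3% were called lower and 11% higher. How many of all genes part the MPP and LT-HSC libraries without overlap was not counted. Such separation, where it is given below, only describes the values. In AhR-KO, 4 were called lower (Meis1, Pbx3, Hoxa10 and Hoxb5) and 2 higher (Hoxa7 and Hoxa9), where 10.7% of all genes were called lower and 12.5% higher. The median log2 fold change of the 9 genes, MPP against LT-HSC, was -0.93 in WT and -0.87 in AhR-KO, beside 0.01 over all genes in both. A call is an adjusted p under 0.05 in edgeR's quasi-likelihood test with Benjamini-Hochberg adjustment over all genes. All adjusted p-values are from it unless another tool is named. The error beside a log2 fold change is its SE, and that beside a level is the SD.

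Meis1, the cofactor that binds DNA with Hoxa9 and Pbx proteins, had 431, 461, 504, 463 and 466 CPM in the WT LT-HSC libraries and 251, 256, 242, 246 and 230 CPM in the WT MPP libraries. In AhR-KO it had 456, 379, 390, 512 and 461 CPM in LT-HSC and 225, 214, 201, 224 and 299 CPM in MPP. Every LT-HSC library was above every MPP library. Meis1 was 1.9-fold lower in MPP in WT (log2 fold change -0.93 ± 0.10, SE, adjusted p = 1.8e-06) and 1.89-fold lower in AhR-KO (-0.92 ± 0.10, adjusted p = 2.02e-06). The highest MPP value, 299 CPM, was in AhR-KO MPP 5, which also had the highest sum of LT-HSC markers among the MPP libraries (1010 CPM, beside a group median of 589) and the lowest sum of MPP markers (1710 CPM). Without that library the log2 difference in AhR-KO was -1.06 (adjusted p = 8.82e-08). Markers of mature cells moved with the population as well. The 7 B cell markers summed to 51.3 to 839 CPM in LT-HSC and 1630 to 29800 CPM in MPP, and the 8 neutrophil markers to 14.1 to 2980 and 2730 to 10600 CPM. Their part in the differences was not tested, and in bulk RNA fewer cells of a type and less RNA per cell cannot be told apart.

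Pbx3, a further TALE cofactor, had 7.09, 16.4, 17.8, 19.7 and 27.9 CPM in WT LT-HSC and 10.4, 8.52, 10, 7.15 and 5.52 CPM in WT MPP. The groups overlapped through WT LT-HSC 1, the library with 7.09 CPM. In AhR-KO it had 18.2, 16, 20.8, 20.7 and 17.8 CPM in LT-HSC and 4.36, 5.12, 9.53, 8.64 and 5.84 CPM in MPP, with no overlap. It was 2.14-fold lower in MPP in WT (log2 fold change -1.10 ± 0.28, adjusted p = 0.00785) and 2.78-fold lower in AhR-KO (-1.48 ± 0.28, adjusted p = 7.66e-04).

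Within the HoxA cluster the members parted. Hoxa10, at the 5′ end of the genes expressed here, had 39.4, 43.9, 48.5, 50.2 and 49 CPM in WT LT-HSC and 13.5, 28.8, 24.1, 24.4 and 24.4 CPM in WT MPP. In AhR-KO it had 47.5, 35.5, 36.1, 45.8 and 40.2 CPM in LT-HSC and 19.9, 19.7, 19.5, 25.6 and 27.5 CPM in MPP, so that all LT-HSC libraries were above all MPP libraries in both genotypes. It was 2.0-fold lower in MPP in WT (log2 fold change -1.0 ± 0.16, adjusted p = 1.83e-04) and 1.83-fold lower in AhR-KO (-0.87 ± 0.16, adjusted p = 6.35e-04). Its neighbour Hoxa9, the gene with the highest level of the cluster per library, did not pass the test in WT (-0.12 ± 0.14, adjusted p = 0.608), nor did Hoxa7 (0.06 ± 0.12, adjusted p = 0.798) and Hoxa5 (-0.07 ± 0.24, adjusted p = 0.889). The 95% intervals of the log2 fold change were -0.41 to 0.17 for Hoxa9, -0.19 to 0.30 for Hoxa7 and -0.58 to 0.44 for Hoxa5. Hoxa10 therefore fell in MPP, where no such difference was called for the other 3 HoxA members in WT; the difference between the genes was not tested.

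Hoxb5 fell most of the 9 genes on the log2 scale in both genotypes. It had 5.75, 8.16, 5.35, 5.39 and 7.18 CPM in WT LT-HSC and 1.23, 0.498, 0.114, 0.83 and 0.221 CPM in WT MPP. In AhR-KO it had 7.72, 5.1, 4.35, 8.14 and 8.0 CPM in LT-HSC and 1.62, 0.793, 1.1, 0.202 and 1.13 CPM in MPP. No MPP library reached the lowest LT-HSC library. The MPP values rest on 2 to 23 reads a library and are imprecise. The log2 fold change was -3.46 ± 0.50 in WT (11-fold lower, adjusted p = 4.74e-05) and -2.78 ± 0.48 in AhR-KO (6.85-fold lower, adjusted p = 2.67e-04).

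Hoxb2 had 1.85, 1.41, 1.48, 1.4 and 1.79 CPM in WT LT-HSC and 0.137, 0.299, 0.229, 0.415 and 0.276 CPM in WT MPP, with no overlap, and was 5.69-fold lower in WT MPP (log2 fold change -2.51 ± 0.48, adjusted p = 8.48e-04). In AhR-KO it had 1.22, 1.24, 0.786, 1.65 and 1.45 CPM in LT-HSC and 0.211, 1.01, 0.765, 0.101 and 0.933 CPM in MPP. There 2 MPP libraries lay within the LT-HSC range, and the difference was not called (-1.06 ± 0.46, adjusted p = 0.103), though limma voom called it (log2 fold change -1.51, adjusted p = 0.0174). Hoxb2 rests on 2 to 39 reads a library. Hoxb4, between Hoxb2 and Hoxb5 in the cluster, showed no called difference, with group means of 1.15 ± 0.56 CPM in WT LT-HSC, 1.25 ± 0.532 CPM in AhR-KO LT-HSC, 1.29 ± 0.584 CPM in WT MPP, and finally 1.4 ± 0.316 CPM in AhR-KO MPP. Its counts were 6 to 38 reads a library, and the 95% interval of its log2 difference between populations in WT, -0.73 to 1.06, was wide.

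**Figure D2:**
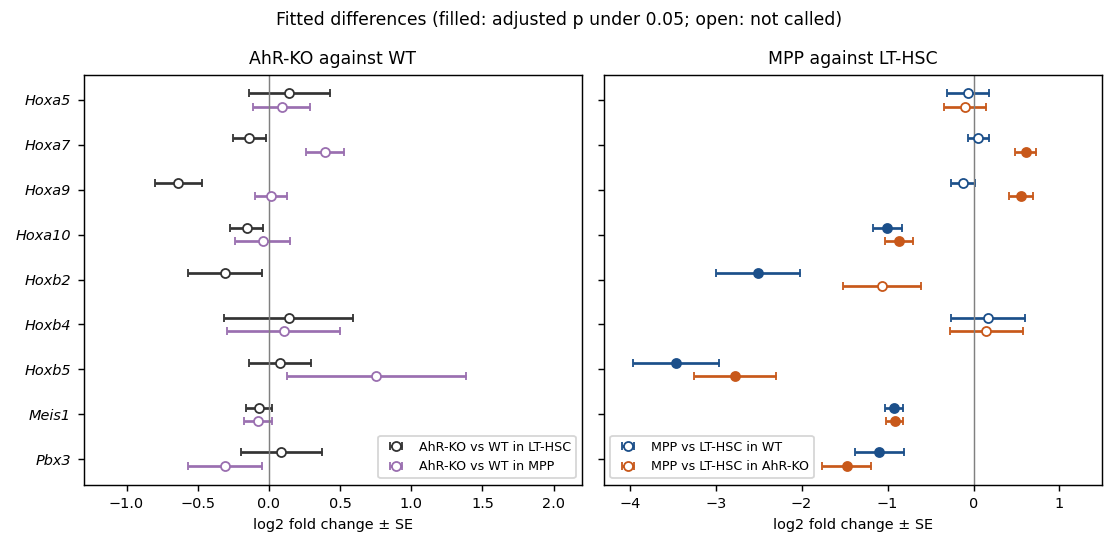
Fitted log2 fold change ± SE of each gene for AhR-KO against WT (left, in LT-HSC and in MPP; Hoxb2 was not tested in MPP) and for MPP against LT-HSC (right, in WT and in AhR-KO). Filled points have an adjusted p under 0.05; they occur only on the right, where Hoxb5 lies farthest from 0 (-3.46 in WT) and Hoxa7 (0.61) and Hoxa9 (0.55) are above 0 in AhR-KO.

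The second question was whether these genes depend on the genotype within a population. In LT-HSC, none of the 9 genes was called by edgeR between AhR-KO and WT, where 1 of 16065 genes was (0.00622%). An unadjusted p under 0.05 was found for 1 of the 9, Hoxa9, and for 1422 of the 16065 genes. DESeq2 called 149 genes in all and limma voom 305, and each called 1 of the 9, Hoxa9. The median log2 fold change of the 9 genes was -0.07, beside 0.0008 over all genes. In MPP none of the 8 genes tested was called by edgeR, DESeq2 or limma voom, where edgeR called 5 of 16077 genes (0.0311%). An unadjusted p under 0.05 was found for 1 of the 8, Hoxa7, and for 1065 of the 16077 genes. Hoxb2 did not pass the filter on low counts there. The median of the 8 was 0.05, beside 0.0048 over all genes.

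Hoxa9, which together with Meis1 supports the renewal of immature cells, had 117, 76.3, 62.5, 67.6 and 74.6 CPM in WT LT-HSC. In the AhR-KO libraries it had 51.3, 46.7, 45.1, 59.0 and 51.1 CPM. All 5 AhR-KO libraries were below all 5 WT libraries, a separation that 3.64% of the genes tested showed in one direction or the other. The means were 79.5 ± 21.5 and 50.6 ± 5.41 CPM. The log2 fold change was -0.64 ± 0.16 (95% interval -1.0 to -0.27), which did not pass the test after adjustment (adjusted p = 0.421 from edgeR, rank 93 of 16065 genes by p). DESeq2 called it (log2 fold change -0.65, adjusted p = 0.0396), as did limma voom with weights for library quality (-0.49, adjusted p = 0.0253). The WT group is spread by WT LT-HSC 1 with 117 CPM. Without that library the fold change was smaller and the edgeR test called it (-0.46 ± 0.09, adjusted p = 0.0392), while 203 genes in all were then called. AhR-KO LT-HSC 2 and 3, with the high neutrophil and erythroid marker sums and the lowest LT-HSC marker sums in LT-HSC, were the libraries with the lowest Hoxa9. Without both the log2 fold change was -0.56 (adjusted p = 0.999), and without these and WT LT-HSC 1 it was -0.38 (adjusted p = 0.124). Over the 19 alternatives it ranged from -0.78 to -0.38 and the adjusted p from 0.0253 to 1.0.

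In MPP, Hoxa9 had 62.8, 72.9, 66.9, 75.5 and 87.9 CPM in WT and 79.6, 72.7, 65.6, 80.8 and 72.4 CPM in AhR-KO. The groups overlapped throughout (log2 fold change 0.02 ± 0.11, 95% interval -0.22 to 0.26, adjusted p = 0.986). The AhR-KO LT-HSC libraries were thus below every library of the other 3 groups. Within AhR-KO, Hoxa9 was 1.47-fold higher in MPP than in LT-HSC (log2 fold change 0.55 ± 0.14, adjusted p = 0.00761), the call named above. It was lost without AhR-KO LT-HSC 2 and 3 together (0.43, adjusted p = 0.0797) and held under the other 28 alternatives.

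Hoxa7, the neighbour of Hoxa9 on the 3′ side, had 19.7, 26.0, 23.0, 23.0 and 23.9 CPM in WT MPP. In the AhR-KO libraries it had 33.2, 29.4, 32.4, 33.7 and 23.6 CPM. In AhR-KO MPP 4 libraries were above all WT MPP libraries, and AhR-KO MPP 5, the library with the high LT-HSC marker sum, lay within the WT range at 23.6 CPM. The log2 fold change was 0.39 ± 0.13 (95% interval 0.10 to 0.68), which did not pass the test after adjustment (adjusted p = 0.616 from edgeR, rank 304 of 16077 genes by p). Without AhR-KO MPP 5 it was 0.48 ± 0.12 (adjusted p = 0.326), and no alternative called it. In LT-HSC, Hoxa7 had 26.3, 21.2, 18.6, 20.7 and 24.4 CPM in WT and 20.7, 19.1, 18.4, 21.6 and 20.2 CPM in AhR-KO, which overlapped (-0.14 ± 0.12, adjusted p = 0.777). Within AhR-KO it was 1.52-fold higher in MPP than in LT-HSC, with no overlap (0.61 ± 0.12, adjusted p = 9.48e-04), a call that held under all 29 alternatives. Of its exon bases, 20.4% are shared with Hoxaas3, which in AhR-KO was itself higher in MPP (log2 fold change 1.55 ± 0.44, adjusted p = 0.0145) at 2.62 ± 1.18 against 0.889 ± 0.356 CPM. Its part in the value of Hoxa7 was not tested.

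**Figure D3:**
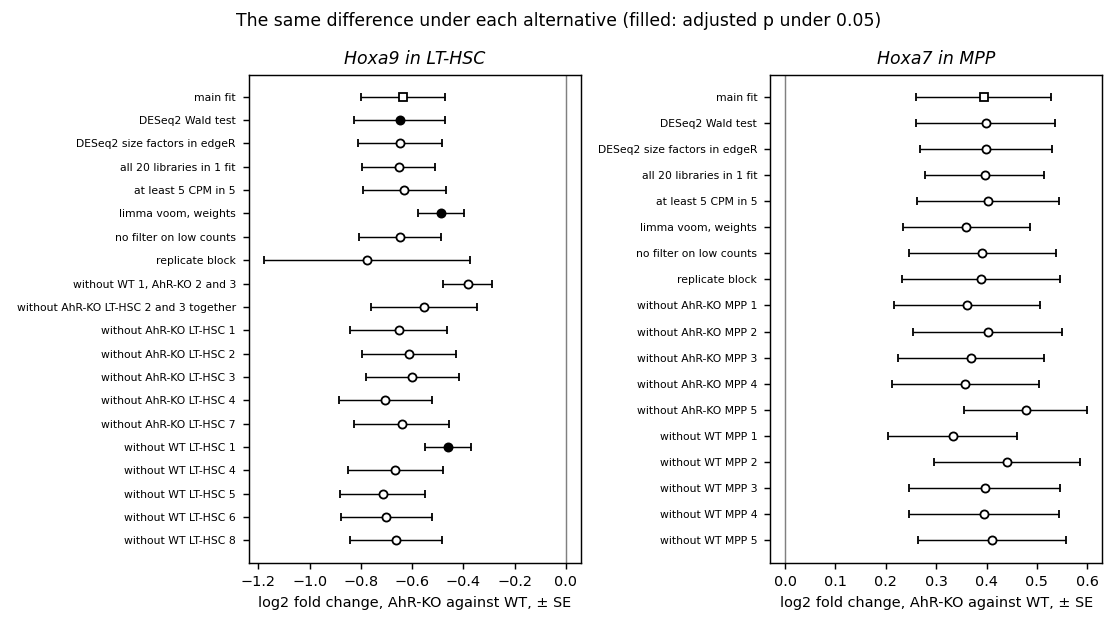
Log2 fold change ± SE of AhR-KO against WT for Hoxa9 in LT-HSC (left) and Hoxa7 in MPP (right) in the test as reported (square, labelled main fit) and under each alternative (circles); filled symbols have an adjusted p under 0.05. Hoxa9 lies below 0 in every fit, from -0.78 to -0.38, and is called in 3 of 19 alternatives; Hoxa7 lies above 0 in every fit, from 0.33 to 0.48, and is called in none of 17.

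The other members showed smaller or less certain values between genotypes. In LT-HSC the log2 fold change of AhR-KO against WT was -0.07 ± 0.09 for Meis1, -0.16 ± 0.12 for Hoxa10, 0.08 ± 0.22 for Hoxb5, 0.09 ± 0.28 for Pbx3, 0.14 ± 0.29 for Hoxa5, 0.14 ± 0.45 for Hoxb4 and -0.31 ± 0.26 for Hoxb2. The 95% interval of Meis1, -0.27 to 0.13, was the narrowest of these. Meis1, Hoxa9 and Hoxa10 had their lowest LT-HSC values in AhR-KO LT-HSC 2 and 3, and without both the value of Meis1 was 0.04. In MPP it was -0.08 ± 0.10 for Meis1, -0.04 ± 0.19 for Hoxa10, 0.09 ± 0.20 for Hoxa5, 0.10 ± 0.40 for Hoxb4, -0.31 ± 0.26 for Pbx3 and 0.76 ± 0.63 for Hoxb5. Adjusted p-values were 0.738 or higher in LT-HSC and 0.853 or higher in MPP. Hoxa5 had 3.28, 5.39, 7.74, 6.31 and 9.35 CPM in WT LT-HSC, 5.74, 5.64, 6.03, 7.09 and 10.6 CPM with AhR-KO. In MPP it had 5.39, 6.13, 4.57, 6.48 and 8.05 CPM in the WT libraries and 6.32, 6.85, 5.61, 7.08 and 6.87 CPM in those of AhR-KO. All 4 groups of Hoxa5 overlapped. The WT and AhR-KO libraries of MPP did not separate for any member, while they did for 1.17% of the genes tested.

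The third comparison asked whether the AhR-KO effect differs between MPP and LT-HSC. No gene of 17416 was called by edgeR (0%), with 1125 genes at an unadjusted p under 0.05; DESeq2 called 51 and limma voom 18, no member among them. The difference of effects was 0.67 ± 0.20 on the log2 scale for Hoxa9 (adjusted p = 0.553 from edgeR, rank 100 by p) and 0.55 ± 0.17 for Hoxa7 (adjusted p = 0.553, rank 119). Both effects lay higher in MPP, and both differences kept that direction under all 28 alternatives. Hoxb2 had 1.44 ± 0.65 (adjusted p = 0.767). The other 6 genes had adjusted p-values of 0.921 or higher, with Meis1 at 0.01 ± 0.14. The calls of Hoxa7 and Hoxa9 between populations in AhR-KO alone therefore do not come with a called difference between the genotypes, and the population comparisons share the libraries of the genotype comparisons.

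The rest of the Hox clusters was low. Of the 11 HoxA genes, 7 reached a mean of 1 CPM over the series and were tested in each comparison. The 4 members had the highest means of the cluster in every group, and the highest value of any other HoxA gene in a library was 5.85 CPM. The 11 HoxA genes summed to 146 to 190 CPM over the libraries of WT LT-HSC and 111 to 142 CPM in those of AhR-KO LT-HSC. In MPP the sum was 105 to 150 CPM for WT and 130 to 151 CPM for AhR-KO. The WT and AhR-KO LT-HSC sums did not overlap. Hoxa9 makes up the largest part of each, so the sums are not independent of its difference, which edgeR did not call. Hoxa5, Hoxa7 and Hoxa10 each overlapped between the genotypes in LT-HSC. Between populations the called HoxA genes were the members named above. Of the 10 HoxB genes, 4 were tested between populations, and beside the members only Hoxb6 was called, lower in AhR-KO MPP (log2 fold change -2.69 ± 0.79, adjusted p = 0.0176) at 0 to 0.344 CPM. The HoxB sum was 7.91 to 13.9 CPM over the LT-HSC libraries and 2.02 to 4.54 CPM over the MPP libraries. Of the 9 HoxC genes only Hoxc6 was tested, and it was called lower in WT MPP, where 1 read in 1 of 5 libraries was counted against 2 to 26 reads a library in WT LT-HSC. No HoxD gene of 9 passed the filter, and their sum was at most 0.242 CPM in any library.

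**Figure D4:**
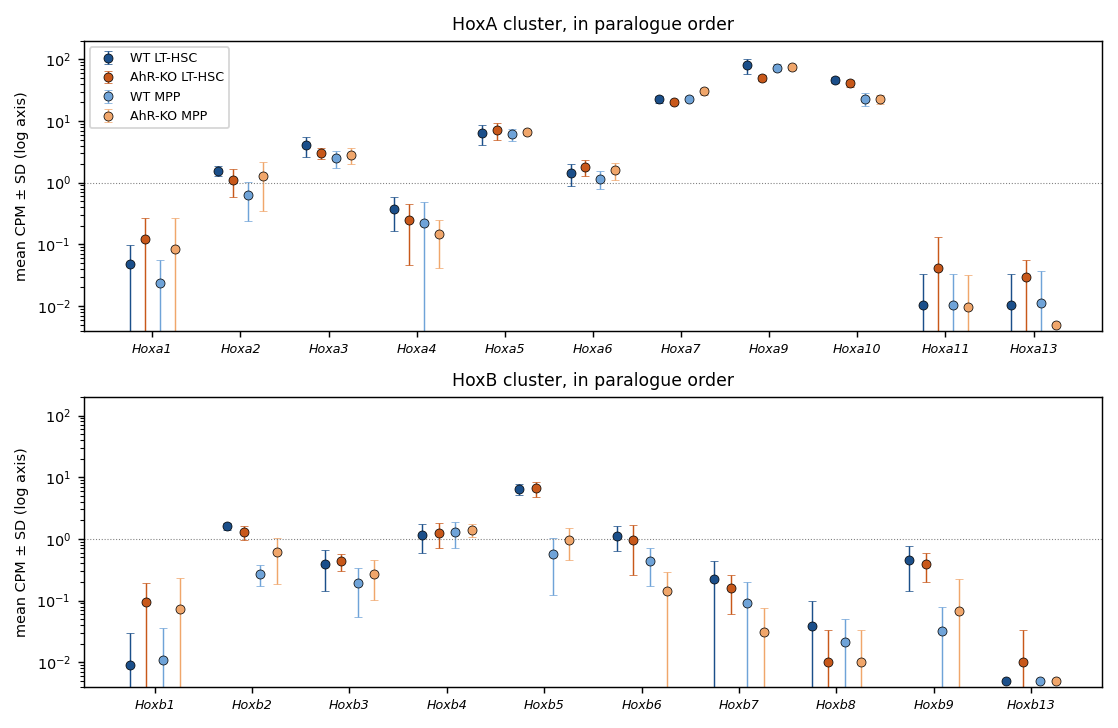
Mean CPM ± SD (n = 5, log axis) of every HoxA gene (top) and HoxB gene (bottom) in paralogue order, by group; a group with no read is drawn at 0.005 CPM, bars that reach 0 are cut at the axis, and the dotted line marks 1 CPM. Hoxa7, Hoxa9 and Hoxa10 form the peak of the HoxA cluster, while in the HoxB cluster Hoxb5 stands out in LT-HSC (6.37 and 6.66 CPM) and falls to 0.578 and 0.972 CPM in MPP.

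Among the noncoding genes of the clusters, 4 of 11 were tested between populations. Hoxb5os, antisense to Hoxb5, was called lower in WT MPP (log2 fold change -2.17 ± 0.46, adjusted p = 0.00182), as was Hoxb3os, antisense to Hoxb2 and Hoxb3 (-2.30 ± 0.69, adjusted p = 0.0204). In AhR-KO neither was called, with Hoxb5os at -0.37 ± 0.43 (adjusted p = 0.597). Hoxb5os had 0.136 to 0.83 CPM over the WT MPP libraries and 0.561 to 2.16 CPM over those of AhR-KO. The AhR-KO against WT difference there was 1.74 ± 0.52 (adjusted p = 0.56), not called, and the difference of effects 1.80 ± 0.62 (adjusted p = 0.598). No noncoding gene was called between genotypes. Hoxb5os shares 100 exon bases with Hoxb5, whose own difference in MPP was not called either.

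Other TALE cofactors also differed between the populations, in both directions. Meis2 and Meis3 were called lower in MPP, as Meis1 and Pbx3 were, and Pbx4 and Tgif1 higher, each in both genotypes. Among all genes tested, 11% were called higher and 11.3% lower in WT MPP, and 12.5% and 10.7% in AhR-KO MPP. The median log2 fold change of the 11 cofactors tested was -0.58 in WT and -0.43 in AhR-KO, beside 0.01 over all genes. Pbx4 moved opposite to Pbx3, from 8.84 ± 0.802 to 18.0 ± 3.44 CPM in WT (1.02 ± 0.17, adjusted p = 1.96e-04) and from 6.3 ± 1.2 to 21.1 ± 4.35 CPM in AhR-KO (1.74 ± 0.17, adjusted p = 6.13e-07). Tgif1, a repressor of the same class, was 1.35-fold higher in WT MPP (adjusted p = 0.00173). Meis3 was 2.23-fold lower in WT MPP (adjusted p = 0.00574). Meis2 was at most 0.207 CPM in any MPP library, 0 to 4 reads, and its fold is imprecise. None of the 11 was called between genotypes in LT-HSC, nor any of the 10 tested in MPP.

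Regulators that open or close the Hox clusters were counted as 2 further lists. Of 16 genes of the MLL complex and its elongation partners, Mllt3, a partner that reads acetylated and acylated histones, was 5.86-fold lower in WT MPP (log2 fold change -2.55 ± 0.16, adjusted p = 1.6e-09) and 5.55-fold lower in AhR-KO MPP (adjusted p = 2.72e-09). Its level went from 117 ± 18.3 to 19.9 ± 4.3 CPM in WT. Dot1l, the methyltransferase of histone H3 recruited by the same partners, was called higher in WT MPP (0.62 ± 0.20, adjusted p = 0.0326) and not in AhR-KO. The median of the list was -0.045 in WT and -0.08 in AhR-KO. Of 19 Polycomb genes, which keep Hox genes silent, Ezh2 was called higher in MPP in both genotypes (0.82 ± 0.10 in WT, adjusted p = 5.56e-06, and 0.81 ± 0.10 in AhR-KO, adjusted p = 6.1e-06). In WT also Bmi1, Rnf2 and Ezh1 were called lower, by log2 values of -0.38, -0.38 and -0.41, and in AhR-KO Pcgf1 and Eed higher (1.07 and 0.36) and Phc1 lower (-0.43). The median of the list was -0.10 in WT and 0.06 in AhR-KO. Of the 19 Polycomb genes, 1 was called higher and 3 lower in WT MPP, and 3 higher and 1 lower in AhR-KO MPP. Of the 16 MLL genes, 1 was called higher and 1 lower in WT, and 0 and 1 in AhR-KO. Over all genes tested, 11% were called higher and 11.3% lower in WT, and 12.5% and 10.7% in AhR-KO. Whether the 2 lists differ from these shares was not tested. The 3 caudal factors that switch on Hox genes in the embryo did not pass the filter in any comparison. No gene of these lists was called between genotypes.

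Of 16 genes known as targets of Hoxa9 or Meis1, 6 were called higher and 4 lower in WT MPP (median 0.11). In AhR-KO, 9 were called higher and 3 lower (median 0.43). The shares over all genes tested were 11% higher and 11.3% lower in WT, and 12.5% and 10.7% in AhR-KO. Flt3, the receptor of a progenitor growth factor, led the higher ones with 57.1 ± 9.13 CPM in WT LT-HSC and 480 ± 70.6 in WT MPP (8.41-fold, adjusted p = 3.61e-10). Flt3 and Cd34 are also among the MPP markers and Hlf among the LT-HSC markers, so the list is not independent of the populations. Cdk6, Myb, Id2, Cd34 and Mybl2 were called higher in both genotypes, and Hlf and Igf1r lower in both. None of the 16 was called between genotypes, where Hoxa9 had its lower values in AhR-KO LT-HSC. The list's median there was -0.01.

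By likeness of log2 CPM over the 20 libraries, among 10610 genes (10611 for Hoxb2, Hoxb4 and Hoxb5), the genes most like Meis1 included Gata2 (Pearson r = 0.987), a stem cell transcription factor, and Scarf1 (0.98). Those most like Hoxa10 included Ctnnal1 (0.957) and Tmem40 (0.948), and those most like Hoxb5 were Sgms1 (0.931), Chst2 (0.927) and Socs2 (0.926). These values describe mainly the difference between the populations that all these genes share. The highest value was 0.949 for Pbx3 (Clstn1), 0.916 for Hoxa9 (Zfand2b), 0.901 for Hoxb2 (Batf2), 0.889 for Hoxa7 (Mettl1), 0.809 for Hoxb4 (Mphosph8) and 0.79 for Hoxa5 (Ccdc102a). In WT LT-HSC, Zfand2b reached 58.3 CPM beside a median of 34.7, and Clstn1 fell to 58.5 CPM beside a median of 124. The part of single libraries in these values was not tested. Ctnnal1 is also among the LT-HSC markers.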

How the data were processed

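RNA-seq was made from 20 libraries, 5 for each of 4 groups, and the group and number of each came from its title. The authors deposited 2 tables of raw counts per symbol, 1 for each population. Per the submitters' processing notes they used featureCounts of Subread 1.5.0p3, STAR 2.5.2b, Trimmomatic 0.36 and DESeq2 1.12.4 on GRCm38.p5, with settings not given in the sources used here. Per the labels' protocols the libraries hold poly(A) RNA made with a TruSeq kit, in a passage that speaks of DC samples, which are not the cells of this series. The tables list the same symbols and were joined. Of these, 26 had turned into dates (at most 0.156% of a library).

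Library totals were 13712668 to 21622653 counts. Genes were tested with edgeR 4.0.16 in R 4.3.3 (filterByExpr, TMM, robust quasi-likelihood F test, two-sided, Benjamini-Hochberg adjustment over all genes tested, called under 0.05). AhR-KO was compared with WT on the 10 libraries of a population, and the other contrasts came from 1 fit of all 20 libraries. The SE is the log2 fold change over the square root of F. CPM are on TMM-scaled totals, and levels per kb use GENCODE M21 exon length. Counts without molecular identifiers understate counting error. The script was tested on simulated data.

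The 9 genes and the lists were chosen with earlier results of these data known. All 9 are named. Of each list, up to 8 called genes with the smallest p are eligible, and likeness names up to 3 genes per member with a mean of at least 5 CPM. Some results under this rule are not reported here. The alternatives were DESeq2 size factors, DESeq2 1.42.0, no filter, a minimum of 5 CPM in 5 libraries, limma 3.58.1 voom with quality weights, all 20 libraries in 1 fit, only the 10 libraries of a genotype, each replicate or the libraries that stood apart left out, and the replicate number as a block.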

Additional observations from a re-analysis of the deposited data

Results flagged for a closer look

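Of 36 groups of 5 libraries (9 genes in 4 groups), 2 held a library far from the others by the ratio of its gap to the group's range. Chance alone marks about 1 in 20 such groups. Hoxa9 had 117 CPM in WT LT-HSC 1, where the other 4 libraries of the group had 62.5 to 76.3 CPM. The same library had the lowest Pbx3 (7.09 CPM) and the lowest Hoxa5 (3.28 CPM) of its group. Meis1 had 299 CPM in AhR-KO MPP 5, where the other 4 libraries had 201 to 225 CPM. That library also had the highest Hoxa10 of its group (27.5 CPM) and the lowest Hoxa7 (23.6 CPM).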

How the results depend on the processing

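The 4 members called lower in AhR-KO MPP, and Hoxa7, were called in all 29 alternatives. The 5 called lower in WT MPP were called in every alternative that tested them except the replicate block. Hoxb2 was tested in 28 alternatives there and called in 27. No label says that equal replicate numbers mark 1 animal, and the numbers were not taken to pair the libraries. Deviations of same-numbered libraries correlated from -0.177 to 0.179. In AhR-KO all 4 numbers shared by LT-HSC and MPP had a correlation above 0 (0.0147, 0.0617, 0.1 and 0.179), and 2 of the 4 exceeded every pair of unequal numbers compared with them, a hint from the data and not the design. The WT population fit with the block was left with 6 libraries. With the block, the genes called were 0 in LT-HSC, 0 in MPP and 113 between populations in WT, with 0 members, and 4679 in AhR-KO with 6 members, and the log2 values were -1.10 for Hoxa10, -2.51 for Hoxb2, -3.26 for Hoxb5, -0.92 for Meis1 and -0.78 for Pbx3 in WT.

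Between genotypes in LT-HSC the genes called (1 in the reported test) were 149 with DESeq2, 305 with voom, 3 with DESeq2 size factors, 14 with all libraries in 1 fit, 3 with at least 5 CPM, 4 without a filter and 32 without WT LT-HSC 1 and AhR-KO LT-HSC 2 and 3 (the 3 libraries), and 0 to 203 when 1 library was left out. Members called were 1 with DESeq2, 1 with voom and 0 to 1 when 1 library was left out, in each case Hoxa9. In MPP (5 in the reported test) the genes called were 50 with DESeq2, 3 with DESeq2 size factors and 8 with voom, and 0 to 4 when 1 library was left out. Between populations in WT, voom called 6493. For the difference of effects DESeq2 called 51 and voom 18. The cause of these differences was not tested.

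Uncalled values that changed sign were as follows, all on the log2 scale. For AhR-KO against WT in LT-HSC, voom gave -0.12 for Hoxa5, -0.043 for Hoxb5 and -0.09 for Pbx3, and the block 0.168 for Hoxa10 and 0.119 for Meis1. Without AhR-KO LT-HSC 2 and 3 Meis1 was 0.042, and without these and WT LT-HSC 1 Meis1 was 0.008 and Pbx3 -0.112. With 1 library left out, Hoxa5 ranged from -0.053 to 0.314, Hoxb4 from -0.106 to 0.359, Hoxb5 from -0.012 to 0.195 and Pbx3 from -0.115 to 0.303. In MPP the ranges were -0.041 to 0.097 for Hoxa9, -0.189 to 0.048 for Hoxa10 and -0.108 to 0.284 for Hoxb4.

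For MPP against LT-HSC in WT, the block gave 0.363 for Hoxa5 and -0.188 for Hoxb4, voom 0.035 for Hoxa9, and the fit without the 3 libraries 0.058 for Hoxa9. With 1 library left out the ranges were -0.233 to 0.087 for Hoxa5, -0.019 to 0.122 for Hoxa7, -0.214 to 0.058 for Hoxa9 and -0.086 to 0.389 for Hoxb4. In AhR-KO, Hoxa5 was 0.027 with voom and 0.051 with the block, and Hoxb4 -0.011 without the 3 libraries and -0.037 without AhR-KO LT-HSC 2 and 3, and the ranges were -0.202 to 0.062 and -0.04 to 0.297.

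For the difference of effects, Hoxa5 was 0.297 with voom, Hoxb4 0.326 with the block, and Meis1 -0.073 with the block, -0.084 without the 3 libraries and -0.118 without AhR-KO LT-HSC 2 and 3. The ranges were -0.222 to 0.15 for Hoxa5, -0.021 to 0.216 for Hoxa10, -0.24 to 0.201 for Hoxb4 and -0.12 to 0.067 for Meis1. Depth limits Hoxb2, Hoxb4 and, in MPP, Hoxb5, where a library held 2 to 39 reads of a gene. Under the minimum of 5 CPM, Hoxb2 and Hoxb4, and Hoxb5 between genotypes in MPP, were not tested.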

Other observations

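Over the deviations of each library from its group mean, which leave the differences between groups out, Scarf1 (Pearson r = 0.849) and Gata2 (0.825) were again among the 3 genes most like Meis1, after Cpped1 (0.876), over 20 libraries and 10610 genes. For Hoxa9 the 3 were Bex3 (0.905), Dguok (0.893) and Hscb (0.891), and for Pbx3 Gpd1l (0.911), Rps6ka5 (0.894) and Plcb3 (0.881). In WT LT-HSC 1, Hoxa9 was the highest of its group (117 CPM) and Pbx3 the lowest (7.09 CPM). In WT LT-HSC the highest values were 260 CPM for Bex3 (median 151), 131 for Dguok (77.0) and 90.8 for Hscb (45.4). The lowest were 44.0 CPM for Gpd1l (median 83.5), 25.4 for Rps6ka5 (53.0) and 42.6 for Plcb3 (74.7). The part of single libraries in these r values was not tested. Those most like Hoxa10 included Acvr2a (0.841) and Btg3 (0.825). These values are descriptions with no test.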
